A study of Homo sapiens with 9 samples.

Results

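Heat shock chaperone genes were described in 9 RNA-seq libraries of MDA-MB-231 cells, an established triple-negative breast cancer line with a mesenchymal-like phenotype. The set holds 35 genes, named for what their proteins are known to do, with earlier results of these data known, out of 60719 genes in the table. It comprises 18 genes classed as heat inducible, 15 classed as constitutive and the transcription factors HSF1 and HSF2. All 35 were found, HSPB11 through the gene name it carries in GENCODE release 29 (its current symbol is IFT25).

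Recipient cells received small extracellular vesicles (sEVs) from nocodazole-treated donors (TIS sEV), sEVs from DMSO-treated donors (Cont sEV) or no vesicles (No sEV), with 3 libraries in each group. TIS stands for therapy-induced senescence, the state the study assigned to the nocodazole-treated donors, and the design asks how their vesicles affect recipient breast cancer cells. Donor and recipient cells were of the same line, labelled wild type. Donors were exposed to 100 ng/ml nocodazole, a microtubule poison, or to DMSO for 72 h and then kept without it in exo-free medium for another 72 h, after which sEVs were taken from the conditioned medium by differential centrifugation. All recipients were cultured for 72 h in 5% exo-free medium, and RNA was measured at that single time. Senescence of the donors and other effects of nocodazole on them cannot be told apart in this design.

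Molecular chaperones bind unfolded proteins and help them to fold, to be held soluble or to be passed on for degradation. HSP70 proteins work in cycles of ATP hydrolysis that J-domain proteins start and nucleotide exchange factors reset, and clients such as kinases and steroid receptors are then handed to HSP90 with the help of co-chaperones. When unfolded proteins accumulate, the transcription factor HSF1 is freed from chaperones, forms trimers and binds heat shock elements, which are inverted repeats of the unit GAA, so that genes such as HSPA1A, DNAJB1 and HSPH1 are transcribed strongly. In cancer cells HSF1 is often active without heat, and the constitutive partners HSPA8 and HSP90AB1 are among the most abundant mRNAs of proliferating cells.

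The promoter letters that this response is known to use are shown for a selection of members that hold a match. Sequences are RefSeq promoter windows of build GRCh38.p14, which run from 250 bases before to 50 bases after an annotated start, and capitals mark matches to heat shock element letters. The letters searched were GAANNTTC and TTCNNGAA (2 units, each its own reverse complement), and GAANNTTC continued by NNGAA and TTCNNGAA continued by NNTTC (3 units, which are reverse complements of each other and contain both 2-unit motifs). The stretches lie at chr6:31815417-31815463 and chr6:31827613-31827660 on the plus strand for the inducible HSP70 pair, at chr19:14518421-14518494 on the minus strand for DNAJB1, at chr1:78004821-78004853 on the plus strand for DNAJB4, at chr11:123062345-123062374 on the minus strand for HSPA8, at chr14:102087111-102087140 on the minus strand for HSP90AA1 and at chr6:44247758-44247863 on the plus strand for HSP90AB1.
HSPA1A: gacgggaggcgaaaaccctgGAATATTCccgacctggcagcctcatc
HSPA1B: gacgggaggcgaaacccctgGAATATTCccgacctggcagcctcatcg
DNAJB1: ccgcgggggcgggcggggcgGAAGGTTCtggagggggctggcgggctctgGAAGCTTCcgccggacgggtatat
DNAJB4: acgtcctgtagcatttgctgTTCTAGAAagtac
HSPA8: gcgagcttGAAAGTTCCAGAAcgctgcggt
HSP90AA1: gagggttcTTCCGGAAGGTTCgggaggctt
HSP90AB1: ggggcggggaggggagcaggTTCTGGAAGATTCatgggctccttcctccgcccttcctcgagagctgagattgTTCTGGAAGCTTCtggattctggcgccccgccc

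Over the 47 bases compared, the HSPA1A and HSPA1B stretches differed at 1 base, outside the capitals. Promoter windows were given for 28 of the 35 members. The 2-unit letters were in a window of 12 of 16 inducible members (75.0%) and of 4 of 11 constitutive members (36.4%), against 4417 of 27305 genes with a window (16.2%). The 3-unit letters were in 4 inducible members (CHORDC1, DNAJA1, HSP90AA1 and HSPD1) and in 3 constitutive ones (DNAJB6, HSP90AB1 and HSPA8), which together are 7 of the 28 members with a window, against 0.608% of all genes with one. A match is a description of letters, and BAG3, HSPH1, AHSA1 and HSPE1, which are classed as heat inducible, held none in these windows. HSPA4, also described below, held none either. DNAJB1, DNAJB4, HSP90AA1 and HSP90AB1 had more than 1 window, and the stretch shown is from 1 of them. A stretch before the other start of DNAJB4 (chr1:77979115-77979174) held no match.

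The deposited values were TPM, a length-corrected transcript level estimated by salmon for each gene, which add up to 1000000 in every library and carry no sequencing depth, so counting error could not be computed. Between 21292 and 21975 genes had a value above 0 per library. Of the line's known markers, the 6 high ones (VIM, CD44, AXL, CAV1, MSN and EGFR) lay at 103 TPM or above in every library, and the receptors ESR1 and PGR and the cadherin CDH1 at or under 0.577 TPM. EPCAM and ERBB2, also named as low in this line, lay between 21.1 and 30.7 TPM. Markers of leukocytes, endothelium, liver and glia (PTPRC, PECAM1, ALB and GFAP) lay between 0 and 6.43 TPM. Log2 values correlated at r of 0.991 to 0.994 between libraries of the same group and of 0.992 to 0.994 between groups. The third TIS sEV library stood somewhat apart: over the 3386 genes that averaged 50 TPM or more, the SD of its log2 differences from the other libraries was 0.131 to 0.153, against 0.0777 to 0.132 among the others. Genes encoded in the mitochondrial genome took 2.27 ± 0.227% of TPM in TIS sEV cells, 3.06 ± 0.427% in Cont sEV cells and 2.69 ± 0.223% in No sEV cells (SD, n = 3 each). HSPA8 is given below also with these genes left out, and other members in the closing section. The labels do not say that the 3 libraries of a group came from separate cultures, so the spread behind each p-value may be technical.

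Chaperone transcripts were abundant and even across all 9 libraries. Together the 35 genes made up 9893 ± 28.7 TPM in TIS sEV cells, 9798 ± 100.4 TPM in Cont sEV cells and 9717 ± 50.4 TPM in No sEV cells (SD, n = 3 each), which is 0.989%, 0.980% and 0.972% of all transcripts. The plot of levels shows each library. By mean over the 9 libraries, 3 members exceeded 1000 TPM, 18 lay between 100 and 1000 TPM, 12 between 10 and 100 TPM and 2 under 10 TPM. The order was led by HSP90AB1, HSPA8 and HSP90AA1, the cytosolic workhorses of protein folding, and its low end was formed by the small heat shock proteins HSPB8 and CRYAB. HSPB8, a partner of BAG3 in selective autophagy, had 0.437, 0.0964 and 0.101 TPM in TIS sEV cells, 0.158, 0.547 and 0.431 TPM in Cont sEV cells and 1.88, 0.410 and 0.624 TPM in No sEV cells. CRYAB, the alpha B-crystallin of lens and muscle, had 0, 0.0947 and 0.101 TPM in TIS sEV cells and 0.146, 0 and 0 TPM in Cont sEV cells, and was listed at 0 in every No sEV library. These 2 genes did not reach 1 TPM in at least 3 libraries and were not tested, which left 33 members.

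**Figure D1:**
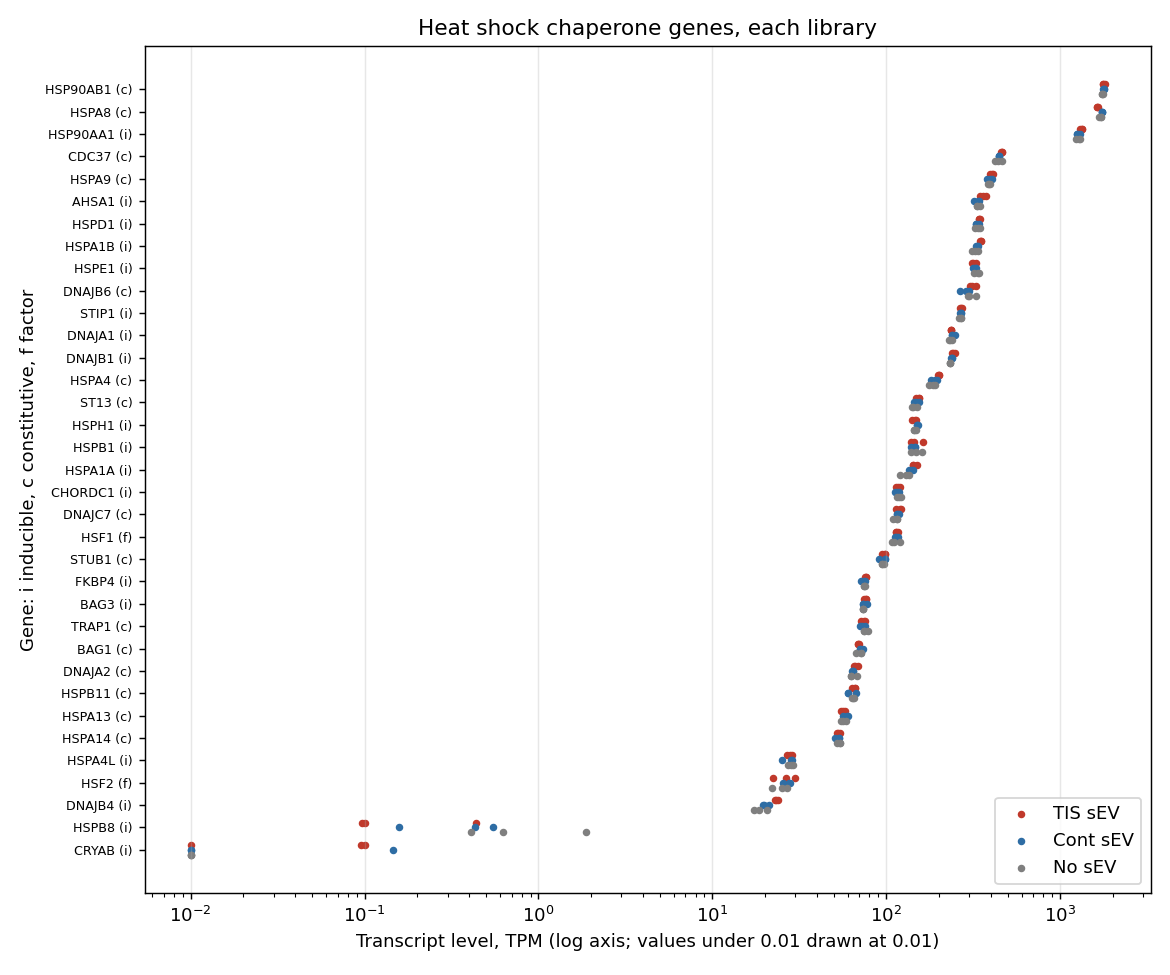
Transcript level of each of the 35 genes in each library, in TPM on a log axis, with TIS sEV, Cont sEV and No sEV libraries in different colours and the genes ordered by mean level. The 9 points of a gene lie close together except for HSPB8 and CRYAB, which lie under 2 TPM.

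The 33 tested members varied little. Their median coefficient of variation over the 9 libraries was 3.05%, the lowest being that of STIP1 (1.05%), which joins HSP70 to HSP90, and the highest that of DNAJB4 (10.5%). A value under 5% was found in 28 members, and the median was 4.39% over 6251 genes within the members' range of mean levels, 61.0% of which were under 5%. The ratio of a member's highest to its lowest library ran from 1.04 to 1.37.

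No member passed the test in any comparison. The test was limma's moderated test on log2(TPM + 1), with Benjamini-Hochberg adjustment over 13879 genes and a threshold of 0.05. Between TIS sEV and Cont sEV cells 0 of 33 members passed, where 13 genes in all did (0.0937%). Between TIS sEV and No sEV cells 0 of 33 passed, where 1 gene did (0.00721%), and between Cont sEV and No sEV cells 0 of 33, where 0 of 13879 did (0.0%). A moderated F test over the 3 groups passed 0 of 33 members and 3 genes in all (0.0216%). Without adjustment, 6 members had a p under 0.05 between TIS sEV and Cont sEV cells (10.0% of all genes), 5 with a higher mean in TIS sEV cells (7.07%) and 1 with a lower one (2.93%). Between TIS sEV and No sEV cells 9 members did (7.97%), 8 with a higher mean in TIS sEV cells (6.33%) and 1 with a lower one (1.64%). Between Cont sEV and No sEV cells 1 member did (6.03%), HSPA1A, which was higher (3.53% of genes were higher and 2.5% lower). Of the 6251 genes within the members' range of mean levels, 13.6%, 9.93% and 6.69% had a p under 0.05 in these 3 comparisons. The F test gave 6 (8.72%). These counts depended on single libraries: the first was 3 without the third TIS sEV library and 3 without the second Cont sEV library. It was 7 without the first Cont sEV library and 7 without the first No sEV library. The second was 6 without the third TIS sEV library and 4 without the second. It was 9 without the first TIS sEV library and 9 without the second Cont sEV library. The count between Cont sEV and No sEV cells ran from 0 (without the second Cont sEV library) to 3 (without the first No sEV library). No share of all genes is given for these fits with a library left out.

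The intervals, drawn in the plot of fold changes, rest on the spread between these libraries, which may be technical. All 33 of the 95% confidence intervals lay within 1.5-fold in each comparison. Counted as ratios, they spanned 0.832 to 1.26 for TIS sEV over Cont sEV, 0.900 to 1.35 for TIS sEV over No sEV and 0.849 to 1.27 for Cont sEV over No sEV. The median half-width was 0.078 on the log2 scale. The groups did not overlap for 15 members between TIS sEV and Cont sEV cells (15.4% of all genes tested, and 19.1% of genes in the members' level range). TIS sEV libraries were higher for 11 of them (10.9% of all genes) and lower for 4 (4.47%), BAG1, DNAJA1, HSPA8 and HSPH1. Between TIS sEV and No sEV cells 9 members did not overlap (14.1% and 16.2%), 8 higher (11.3%) and 1 lower (2.77%). Between Cont sEV and No sEV cells 4 did not (11.2% and 11.3%), DNAJB1, HSP90AB1, HSPA8 and HSPH1, all of them higher (6.72% of genes were higher and 4.47% lower). TIS sEV cells had the higher mean for 24 of 33 members against Cont sEV cells (59.6% of all genes) and 24 of 33 against No sEV cells (66.7%), and Cont sEV cells for 20 of 33 against No sEV cells (56.5%). After median-of-ratios rescaling of the libraries these counts were 20, 14 and 18 of 33 (50.3%, 50.7% and 50.1% of all genes), and after quantile normalization 20, 20 and 18. The median log2 fold change of the members was 0.028, 0.029 and 0.018 in these 3 comparisons, against 0.020, 0.032 and 0.011 over all genes. Median-of-ratios rescaling gave member medians of 0.0065 for TIS sEV against Cont sEV and -0.0043 for TIS sEV against No sEV, so the sign of the second depended on scaling. The 3 comparisons share libraries, so their values are not independent of each other.

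**Figure D2:**
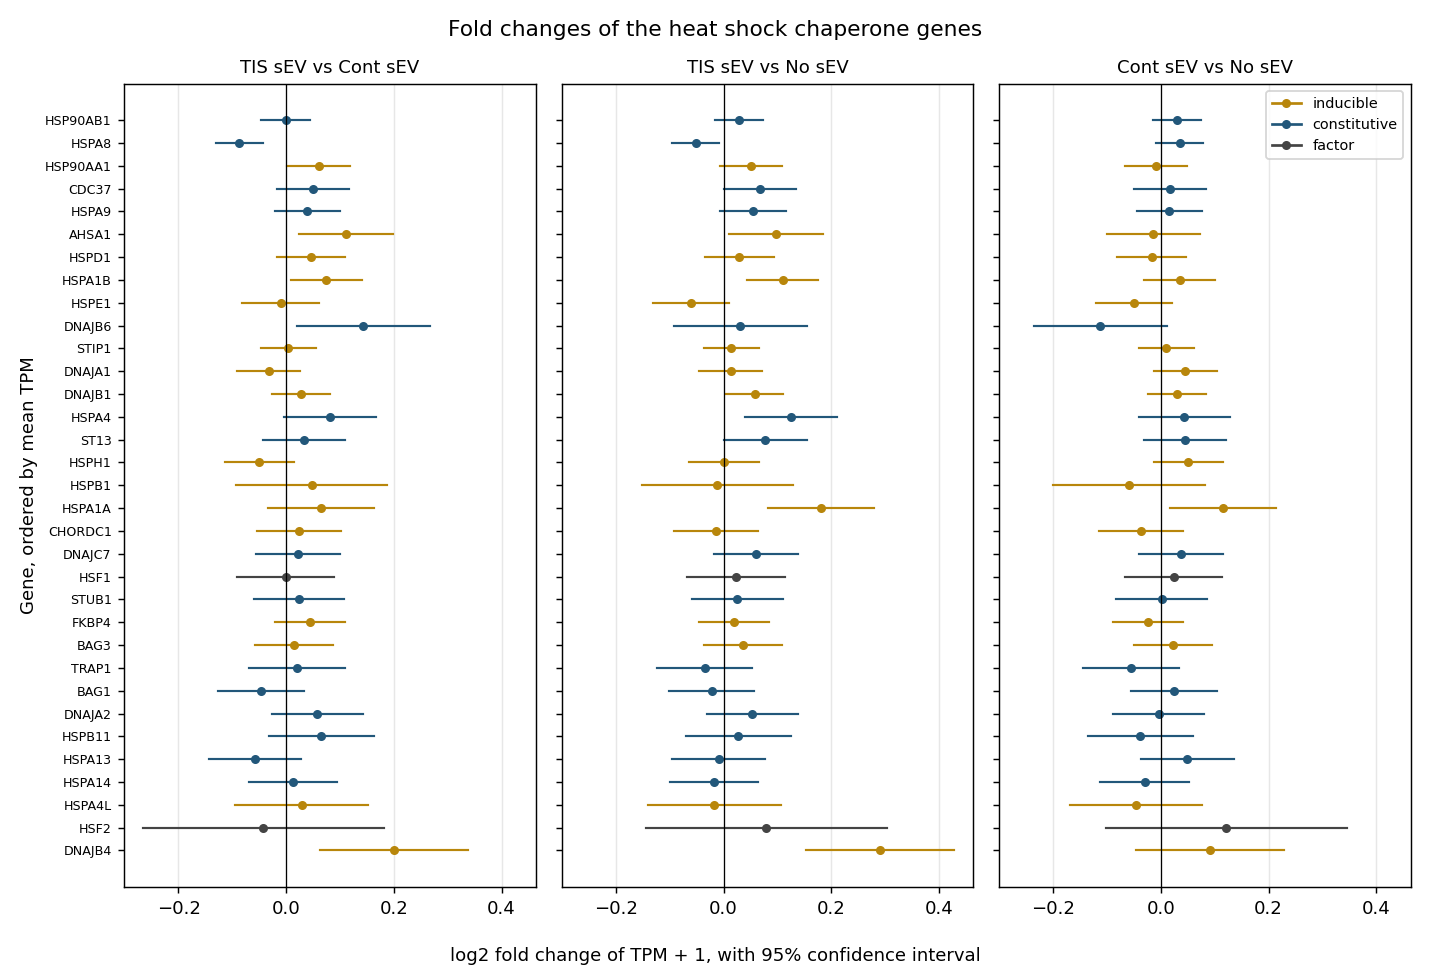
Log2 fold change of TPM + 1 with its 95% confidence interval for each of the 33 tested genes, ordered by mean TPM, in the 3 comparisons, with inducible genes, constitutive genes and the 2 factors in different colours. Most intervals include 0, and the largest estimates are those of DNAJB4 in TIS sEV cells.

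Neither transcription factor passed the test. HSF1, the main activator of the heat shock response, had 117, 113 and 113 TPM in TIS sEV cells, 114, 112 and 117 TPM in Cont sEV cells and 119.8, 110.4 and 108 TPM in No sEV cells, and all groups overlapped. HSF2, its less abundant relative, had 22.5, 29.8 and 26.4 TPM in TIS sEV cells, 27.8, 25.4 and 27.4 TPM in Cont sEV cells and 21.9, 27.0 and 25.2 TPM in No sEV cells, which spread over more of its mean. Its intervals were the widest, for example -0.042 (95% confidence interval -0.27 to 0.18) for TIS sEV against Cont sEV on the log2 scale, a value that was 0.061 without the first TIS sEV library and -0.14 without the second. The level of HSF1 mRNA does not show the activity of the protein, which is set mainly after translation.

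In the HSP70 family the inducible pair had its 3 highest libraries in TIS sEV cells, without passing the test. HSPA1A (ENSG00000204389.10, GRCh38 chr6:31815464-31817946, plus strand) and HSPA1B (ENSG00000204388.7, chr6:31827735-31830255, plus strand) encode the same protein, and 73.6% of the 31-base words of HSPA1A transcripts also occur in HSPA1B, so reads could be divided between them by the estimation. HSPA1A had 143.3, 150.03 and 142.9 TPM in TIS sEV cells, 142.7, 138.6 and 135.7 TPM in Cont sEV cells and 129.1, 120.2 and 135.8 TPM in No sEV cells. TIS sEV values lay above all of the others, by a narrow margin against Cont sEV, and Cont sEV and No sEV values overlapped. The log2 fold change was 0.065 (95% confidence interval -0.034 to 0.16, limma adjusted p = 0.68) for TIS sEV against Cont sEV, 0.18 (95% confidence interval 0.082 to 0.28, adjusted p = 0.391) against No sEV, and 0.12 (adjusted p = 0.804) for Cont sEV against No sEV. The first of these was 0.036 after quantile normalization and 0.042 without the second TIS sEV library, and the last was 0.069 without the second No sEV library. HSPA1B had 351, 347 and 352 TPM in TIS sEV cells, 337, 327 and 334 TPM in Cont sEV cells and 337, 312 and 325 TPM in No sEV cells. Here too the TIS sEV libraries were the 3 highest, at log2 fold changes of 0.075 (limma adjusted p = 0.445) against Cont sEV and 0.11 (adjusted p = 0.467) against No sEV.

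As the pair shares most of its words, their sum is the safer quantity. It was 494.8, 497.1 and 495.1 TPM in TIS sEV cells, 479.3, 465.7 and 469.5 TPM in Cont sEV cells and 466.0, 432.3 and 460.6 TPM in No sEV cells, and the TIS sEV libraries were again above all of the others. The log2 fold change of the sum was 0.13 (95% confidence interval 0.064 to 0.20, limma adjusted p = 0.314) for TIS sEV against No sEV and 0.072 (limma adjusted p = 0.463) against Cont sEV. For Cont sEV against No sEV it was 0.058 (limma adjusted p = 0.825). Relatives outside the set were low: HSPA6 lay between 3.69 and 5.14 TPM, HSPA1L between 0.973 and 1.26 TPM and HSPA2 between 1.32 and 2.42 TPM.

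HSPA8, the constitutive cytosolic HSP70, had the lowest log2 fold change of all members between TIS sEV and Cont sEV cells. It had 1653, 1637 and 1626 TPM in TIS sEV cells, 1742, 1750.1 and 1729 TPM in Cont sEV cells and 1710.4, 1710.5 and 1675 TPM in No sEV cells. The 3 groups did not overlap, with TIS sEV libraries lowest and Cont sEV libraries highest. The log2 fold change for TIS sEV against Cont sEV was -0.087 (95% confidence interval -0.13 to -0.044). Its unadjusted limma p (0.00121) was the smallest among members in that comparison, with a limma adjusted p of 0.207. The log2 fold change was -0.052 (adjusted p = 0.583) against No sEV, and 0.035 (adjusted p = 0.849) for Cont sEV against No sEV. With the mitochondrially encoded genes left out and the rest rescaled, HSPA8 gave -0.10 for TIS sEV against Cont sEV, and without the third TIS sEV library -0.081. After quantile normalization it was -0.047 (limma adjusted p = 0.471) and after median-of-ratios rescaling -0.11 (limma adjusted p = 0.25), and the adjusted p over all alternatives ran from 0.114 to 0.471. For TIS sEV against No sEV, median-of-ratios rescaling gave -0.085. For Cont sEV against No sEV, HSPA8 was 0.023 after that rescaling and 0.0048 after quantile normalization. Of HSPA8's 31-base words, 21.4% occur in another gene.

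The other HSP70 members did not pass either. HSPA4, a nucleotide exchange factor of the HSP110 type, had 202, 200.1 and 199 TPM in TIS sEV cells, 191, 181 and 197 TPM in Cont sEV cells and 175, 189.6 and 186 TPM in No sEV cells, highest in the 3 TIS sEV libraries (log2 fold change 0.13 against No sEV, limma adjusted p = 0.508). HSPH1, its heat-inducible relative, had 149, 147 and 141 TPM in TIS sEV cells, 151, 149 and 152 TPM in Cont sEV cells and 144, 148 and 144 TPM in No sEV cells, lower in TIS sEV than in Cont sEV cells without overlap (log2 fold change -0.050, limma adjusted p = 0.609), which was -0.027 without the third TIS sEV library and -0.079 after quantile normalization. HSPA9, the mitochondrial HSP70, lay between 381 and 412 TPM, HSPA13, an HSP70 of the endoplasmic reticulum, between 55.2 and 60.6 TPM, HSPA14, which works at the ribosome, between 50.4 and 54.4 TPM and HSPA4L, another HSP110-type gene, between 25.2 and 29.03 TPM.

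J-domain proteins hand substrates to HSP70, and DNAJB4 had the largest log2 fold change of all members in both comparisons of TIS sEV cells. DNAJB4 had 23.2, 23.8 and 22.9 TPM in TIS sEV cells, 19.8, 21.1 and 19.6 TPM in Cont sEV cells and 17.5, 20.6 and 18.6 TPM in No sEV cells. All TIS sEV values lay above the others, and Cont sEV and No sEV values overlapped. The log2 fold change was 0.20 (95% confidence interval 0.063 to 0.34, limma adjusted p = 0.313) for TIS sEV against Cont sEV and 0.29 (95% confidence interval 0.15 to 0.43, limma adjusted p = 0.298) against No sEV. DNAJB4 had an unadjusted limma p of 0.000834 against No sEV, the smallest of any member in any comparison. Its coefficient of variation over all 9 libraries was the highest of the tested members (10.5%), a measure that includes differences between groups. Within groups it averaged 23.3 ± 0.505 TPM in TIS sEV, 20.2 ± 0.838 TPM in Cont sEV and 18.9 ± 1.58 TPM in No sEV cells (SD, n = 3 each). Without the third TIS sEV library the log2 fold changes were 0.21 and 0.30. With each library left out in turn they ran from 0.18 to 0.23 and from 0.24 to 0.35. They were 0.18 and 0.26 after median-of-ratios rescaling and 0.18 and 0.25 after quantile normalization. With a pseudocount of 5 they were 0.17 and 0.25.

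DNAJB1, the strongly heat-inducible partner of HSP70 in the cytosol, had 238, 241 and 247 TPM in TIS sEV cells, 239, 238 and 235 TPM in Cont sEV cells and 232, 234 and 231 TPM in No sEV cells. The log2 fold change was 0.058 for TIS sEV against No sEV (limma adjusted p = 0.609), and each TIS sEV library lay above each No sEV one. It was 0.025 after median-of-ratios rescaling. DNAJB6, which suppresses aggregation, had 311, 303 and 326 TPM in TIS sEV cells, 299.8, 287 and 265 TPM in Cont sEV cells and 293, 298 and 329.6 TPM in No sEV cells. Its TIS sEV values lay above the Cont sEV ones but overlapped the No sEV ones, and the log2 fold changes were 0.14 (limma adjusted p = 0.431) and 0.031 (adjusted p = 0.915), with -0.11 for Cont sEV against No sEV (adjusted p = 0.825). Median-of-ratios rescaling turned the sign of the value for TIS sEV against No sEV (-0.0019), and leaving out 1 library at a time moved it between -0.00075 (without the first No sEV library) and 0.083 (without the third). Without the third Cont sEV library the value for TIS sEV against Cont sEV was 0.094. That for Cont sEV against No sEV was -0.063 without the third Cont sEV library and -0.060 without the third No sEV library. The J-domain proteins DNAJA1 and DNAJA2, which also bind unfolded clients themselves, lay between 229 and 247 TPM and between 62.8 and 68.8 TPM, and DNAJC7, which binds HSP70 and HSP90 together, between 109 and 121 TPM.

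The plot of single members by library shows these patterns for 8 genes, with the spread of each group.

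**Figure D3:**
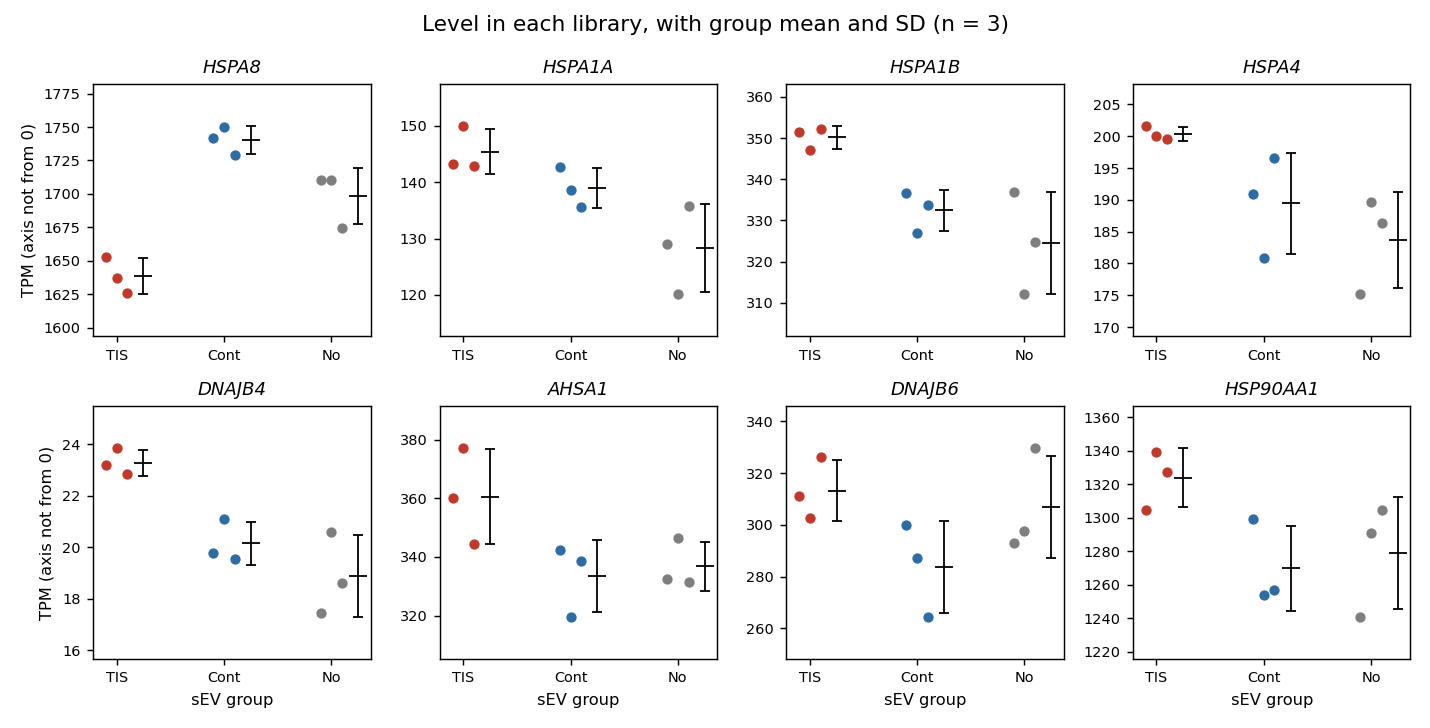
TPM of 8 members in each library, with the mean and SD of each group (n = 3). DNAJB4, HSPA1A, HSPA1B and HSPA4 are highest in the TIS sEV libraries and HSPA8 is lowest there.

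Of the HSP70 co-chaperones, BAG3, the stress-induced exchange factor that links HSP70 to autophagy, had 76.8, 76.3 and 74.0 TPM in TIS sEV cells, 77.6, 73.4 and 73.9 TPM in Cont sEV cells and 74.0, 73.9 and 73.5 TPM in No sEV cells, a range of 73.4 to 77.6 TPM. BAG1, the constitutive counterpart, lay between 67.0 and 73.0 TPM, STUB1, the ubiquitin ligase CHIP, between 90.2 and 98.6 TPM, and ST13, which stabilises the ADP-bound state of HSP70, between 141 and 155 TPM. Of the 31-base words of ST13, 32.1% occur in another gene. None of these 4 genes passed, with limma adjusted p-values of 0.622 or more.

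HSP90 came in 2 abundant cytosolic forms. The inducible HSP90AA1 had 1304.8, 1339.4 and 1327.7 TPM in TIS sEV cells, 1299.3, 1254.1 and 1256.7 TPM in Cont sEV cells and 1241, 1290.9 and 1304.5 TPM in No sEV cells. The constitutive HSP90AB1 had 1806, 1759.9 and 1762 TPM in TIS sEV cells, 1779.6, 1761 and 1790.2 TPM in Cont sEV cells and 1732, 1730.1 and 1760.3 TPM in No sEV cells. HSP90AA1 was highest in the 3 TIS sEV libraries, by a narrow margin (log2 fold change 0.060 against Cont sEV, limma adjusted p = 0.478), and HSP90AB1 was not (log2 fold change -0.00090, limma adjusted p = 0.994). For HSP90AA1 the value was 0.039 after median-of-ratios rescaling and 0.095 after quantile normalization. The mitochondrial TRAP1 lay between 70.6 and 78.4 TPM. Of 31-base words, 35.7% in HSP90AB1 and 25.6% in HSP90AA1 occur in another gene, most often in HSP90AB3P (27.7%) and HSP90AA2P (16.8%).

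Of the HSP90 co-chaperones, AHSA1, which stimulates the ATPase of HSP90, came after HSPA8 and DNAJB4 in the order of p between TIS sEV and Cont sEV cells. AHSA1 had 360.2, 377 and 344 TPM in TIS sEV cells, 342, 319.6 and 339 TPM in Cont sEV cells and 332, 346 and 332 TPM in No sEV cells. TIS sEV values lay above the Cont sEV ones (log2 0.11, 95% confidence interval 0.025 to 0.20, limma adjusted p = 0.378) and overlapped the No sEV ones. CDC37, which delivers kinases, lay between 423 and 463 TPM, STIP1 between 261 and 271 TPM, CHORDC1, another HSP90 partner, between 112 and 122 TPM and FKBP4, an immunophilin of steroid receptor complexes, between 71.9 and 76.6 TPM.

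The small heat shock proteins hold unfolded proteins soluble. HSPB1, which also binds actin, had 162, 138 and 145 TPM in TIS sEV cells, 146, 145 and 138 TPM in Cont sEV cells and 161, 148 and 139 TPM in No sEV cells, and the groups overlapped throughout. HSPB11, a subunit of ciliary transport despite its name, lay between 60.04 and 66.9 TPM. The mitochondrial chaperonin pair HSPD1 and HSPE1 lay between 325 and 345 TPM and between 313 and 342 TPM. Their annotated spans overlap on opposite strands on chromosome 2, and no source used here says whether strand was used.

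The medians of inducible and constitutive members lay within a few hundredths of a log2 unit of each other. Between TIS sEV and Cont sEV cells the median log2 fold change was 0.036 over 16 inducible members (13 higher) and 0.024 over 15 constitutive ones (11 higher). Between TIS sEV and No sEV cells it was 0.025 (12 higher) and 0.029 (10 higher), and between Cont sEV and No sEV cells 3.06e-06 (8 higher) and 0.018 (10 higher). The inducible minus constitutive difference was 0.013, -0.0042 and -0.018. By class means of log2(TPM + 1) in each library, inducible minus constitutive was -0.049, -0.045 and -0.060 in TIS sEV cells. It was -0.076, -0.071 and -0.057 in Cont sEV cells and -0.078, -0.075 and -0.067 in No sEV cells. Each TIS sEV value lay above each No sEV one, where the difference of medians was negative (-0.0042). Cont sEV values overlapped those of both other groups. Over the 7 most strictly heat-responsive genes (HSPA1A, HSPA1B, HSPH1, HSP90AA1, HSPB1, DNAJB1 and BAG3) the medians were 0.047, 0.050 and 0.030. These classes were drawn with results of the data known, and the medians and class means carry no test. Members with a promoter match had a median of 0.039 over 15 tested genes between TIS sEV and Cont sEV cells, against 0.017 over 12 without one, and this order was turned round between TIS sEV and No sEV cells (0.030 and 0.045).

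Ratios within a library remove differences in scaling between libraries. The summed HSPA1A and HSPA1B level over that of HSPA8 was 0.299, 0.304 and 0.305 in TIS sEV cells, 0.275, 0.266 and 0.271 in Cont sEV cells and 0.272, 0.253 and 0.275 in No sEV cells. Every TIS sEV value lay above all of the others. The log2 difference was 0.16 against Cont sEV and 0.18 against No sEV, each with an exact two-sided permutation p of 0.1, the smallest that 3 against 3 can give, and of 0.45 after adjustment over 18 tests. HSP90AA1 over HSP90AB1 was 0.746 ± 0.0203 in TIS sEV cells, 0.715 ± 0.0143 in Cont sEV cells and 0.735 ± 0.0158 in No sEV cells (SD, n = 3 each), and all groups overlapped. HSPD1 over HSPE1 averaged 1.07 ± 0.0317 in TIS sEV cells, 1.03 ± 0.0296 in Cont sEV cells and 1.01 ± 0.00793 in No sEV cells, and TIS sEV values overlapped those of Cont sEV but not those of No sEV cells. BAG3 over BAG1 averaged 1.10 ± 0.0165 in TIS sEV cells, 1.05 ± 0.0106 in Cont sEV cells and 1.05 ± 0.0381 in No sEV cells, and here TIS sEV values overlapped those of No sEV but not those of Cont sEV cells. HSF1 over HSF2 was 4.43 ± 0.718, 4.27 ± 0.161 and 4.62 ± 0.745, and DNAJB1 over DNAJA2 3.62 ± 0.174, 3.70 ± 0.00683 and 3.61 ± 0.128, in TIS sEV, Cont sEV and No sEV cells. Adjusted p was 0.45 or more for all 18 tests, and the plot of ratios shows each library.

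**Figure D4:**
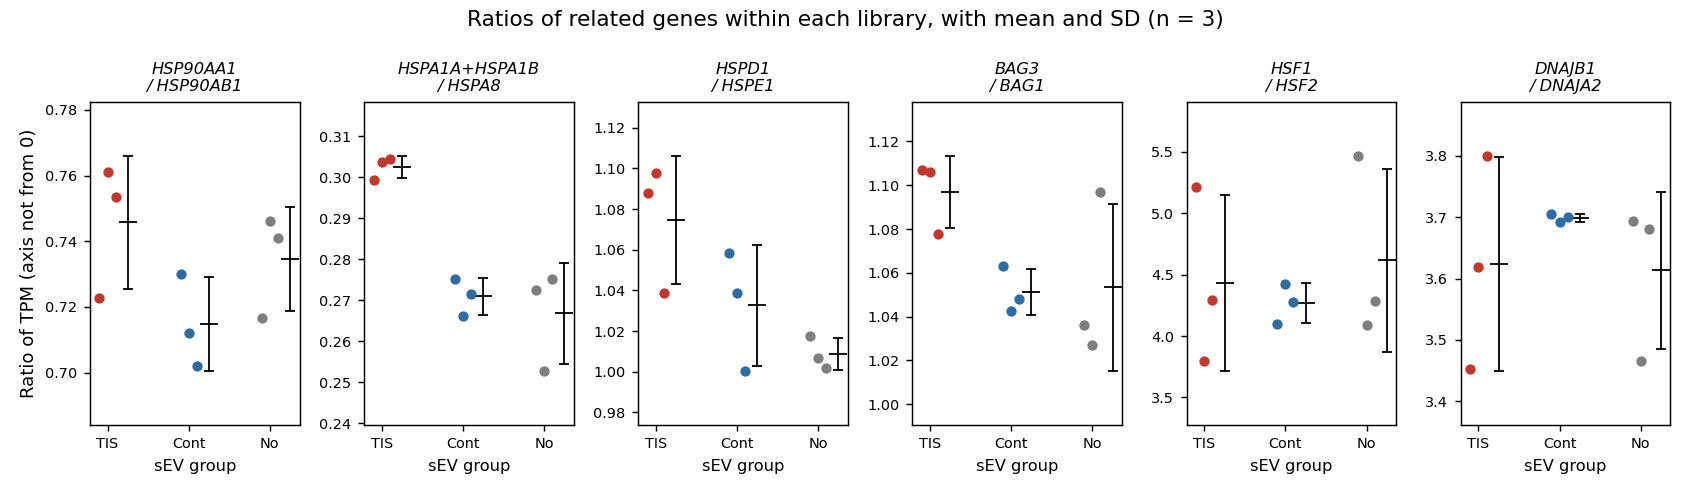
Ratio of TPM between related genes within each library (axes do not start at 0), with the mean and SD of each group (n = 3). The ratio of HSPA1A plus HSPA1B to HSPA8 is the one in which the 3 TIS sEV libraries, 0.299 to 0.305, lie above all of the other libraries, at 0.253 to 0.275.

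The wider proteostasis network was measured by 5 lists of other genes, none of which holds a gene past the threshold in any comparison. Each gene named from a list, here and in the next paragraph, had the smallest p of that list in the comparison given. It need not follow the rest of its list. Of the cytosolic chaperonin TRiC and prefoldin, which fold actin and tubulin, 14 of 14 genes were tested, and the mean was higher in TIS sEV than in Cont sEV cells for 13, where 59.6% of all genes were higher (median 0.033, against 0.020 over all genes). For TIS sEV against No sEV 11 of 14 were higher (median 0.020, against 0.032 over all genes), and for Cont sEV against No sEV 4 of 14 (median -0.011, against 0.011). TCP1, the gene of smallest p in that list, averaged 251 ± 1.98 TPM in TIS sEV cells and 240.02 ± 5.98 TPM in Cont sEV cells (SD, n = 3 each; limma adjusted p = 0.533). Of 13 mitochondrial chaperones and proteases, 5 had a higher mean in TIS sEV than in Cont sEV cells (median -0.014). AFG3L2, a protease of the inner mitochondrial membrane, averaged 67.0 ± 1.34 TPM in TIS sEV cells and 60.8 ± 0.423 TPM in Cont sEV cells (limma adjusted p = 0.186). Of 16 other HSP90 co-chaperones, 11 had a higher mean in TIS sEV than in Cont sEV cells (median 0.024), and FKBP5, a glucocorticoid-responsive immunophilin, averaged 32.4 ± 0.703 TPM in TIS sEV cells and 29.6 ± 1.03 TPM in Cont sEV cells (limma adjusted p = 0.366).

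Of 17 other HSP70 system genes tested, 11 had a higher mean in TIS sEV than in Cont sEV cells (median 0.035). Over all genes 59.6% were higher in that comparison, with a median of 0.020. HSPA6, known for its induction by severe stress, averaged 4.95 ± 0.165 TPM in TIS sEV cells and 3.91 ± 0.195 TPM in No sEV cells (limma adjusted p = 0.539), and BAG4 8.47 ± 0.338 TPM in TIS sEV cells and 7.40 ± 0.409 TPM in Cont sEV cells (limma adjusted p = 0.433). Of 15 other heat-inducible genes and HSF1 regulators, 7 had a higher mean in TIS sEV than in Cont sEV cells (median -0.0027), and GADD45B, a stress-response gene, averaged 73.3 ± 1.44 TPM in TIS sEV cells and 65.8 ± 1.88 TPM in Cont sEV cells (limma adjusted p = 0.229). HMOX1, the haem oxygenase that oxidants also induce, averaged 31.4 ± 1.70 TPM in Cont sEV cells and 27.4 ± 0.718 TPM in No sEV cells (limma adjusted p = 0.728). For TIS sEV against No sEV the medians were 0.0060 for the mitochondrial list, 0.060 for the HSP70 list, 0.016 for the HSP90 list and 0.025 for the heat-inducible list, against 0.032 over all genes. For Cont sEV against No sEV they were 0.0079, 0.0045, -0.0073 and -0.0064 in the same order, against 0.011 over all genes. These lists were drawn with results of the data known.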

How the data were processed

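Total RNA of 9 MDA-MB-231 samples was sequenced. The authors deposited gene-level TPM values, estimated per the submitters' processing notes with Salmon 1.4.0 after FastQC 0.11.9 and Trim Galore 0.6.6. The notes also name DESeq2 1.28.0 and build GRCh38.p13, and no source used here names the annotation. TPM carries no depth, so no count test or counting interval was used. Of 60719 gene IDs, 60419 (99.5%) were matched by Ensembl ID to a list of current gene symbols. HSPB11 was found through its name in GENCODE release 29.

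The 13879 genes that reached 1 TPM in 3 or more libraries were tested on log2(TPM + 1) with limma 3.58.1 in R 4.3.3 (moderated tests with trend, all 9 libraries, Benjamini-Hochberg adjustment over all genes, threshold 0.05). Fold changes are on that scale, which understates low genes. Ratios used exact permutation tests over libraries (SciPy 1.17.1, Python 3.11.15). The limma steps were tested on simulated data. Shared sequence was counted as 31-base words over GENCODE 29 transcripts, and promoter letters over RefSeq windows. Members, classes and lists were chosen with earlier results of these data known. Values are given in every library for the 3 members of smallest p in each comparison, the 3 of highest and of lowest mean and a named set of central chaperones. HSPA4 was added after its values were seen. Alternatives covered the pseudocount, filter, scaling, weights, replicate block, samples in the fit, the summed HSPA1 pair and each library left out.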

Additional observations from a re-analysis of the deposited data

How the results depend on the processing

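No member passed the threshold in any comparison under any of 20 alternatives, and the lowest adjusted p was 0.114 for TIS sEV against Cont sEV, 0.243 for TIS sEV against No sEV and 0.631 for Cont sEV against No sEV. Signs of member fold changes differed from the main ones in 28, 34 and 22 of 659 values per comparison. Medians depended on scaling: median-of-ratios rescaling gave a member median of 0.0065 (TIS sEV against Cont sEV) and -0.0043 (TIS sEV against No sEV), and quantile normalization 0.010 and 0.011. The same rescaling brought the median over all genes to 0.00073 and 0.00125. With the mitochondrially encoded genes left out, the median over all genes for TIS sEV against Cont sEV was 0.0097 (main fit 0.020). In that fit the log2 fold change was 0.053 for HSPA1A (main fit 0.065), 0.063 for HSPA1B (0.075) and 0.070 for HSPA4 (0.082). It was 0.19 for DNAJB4 (0.20), 0.13 for DNAJB6 (0.14), 0.10 for AHSA1 (0.11) and -0.10 for HSPA8 (-0.087). With the 7 strictly heat-responsive genes alone the inducible minus constitutive difference was 0.023, 0.021 and 0.012. With each library left out in turn it ranged from -0.0010 to 0.022 between TIS sEV and Cont sEV cells, -0.012 to 0.0029 between TIS sEV and No sEV cells and -0.022 to -0.0035 between Cont sEV and No sEV cells, and the member median between TIS sEV and Cont sEV cells from 0.016 to 0.044. The cause of these moves was not tested. With the replicate number as a replicate block, 0 members passed in each comparison. Of 9 same-numbered pairs of libraries, 0 had correlated deviations over 0.1 (-0.048 to 0.079), and 2 of 9 libraries correlated best with their own number. The labels do not say whether equal numbers mark a shared batch, and weak correlations between so few libraries cannot settle it. TPM values give no depth, so the precision of low genes such as HSPB8 and CRYAB is unknown, and 3 libraries per group limit the test.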
